A study of Mus musculus with 10 samples.

Results

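Fast excitatory transmission in the cortex depends on receptors for glutamate and on the proteins that hold them in the postsynaptic membrane. The genes described here encode the AMPA, kainate, NMDA, delta and metabotropic glutamate receptors, the Dlg, Dlgap, Shank and Homer scaffolds, the kainate receptor auxiliary subunits *Neto1* and *Neto2*, the kinase subunits *Camk2a* and *Camk2b*, and *Baiap2*. Receptor genes were chosen by the stems of their symbols and the other genes by name. The 41 genes described here, of 14300 in the count table, include 22 that encode receptors and 19 that encode scaffolds, kinase subunits or auxiliary subunits. *Grin3b* and *Grm6* fit the same symbols and were not analysed here.

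The question was how the expression of these genes differed between *Grem1*-traced cells and the other cells of the embryonic mouse brain. All cells came from C57BL/6J *Grem1creERT; Rosa26LSLTdtomato* embryos, in which a tamoxifen-activated Cre recombinase controlled by *Grem1* turns on the red reporter TdTomato permanently. The dams received tamoxifen on the fourteenth day of gestation and cells were collected 24 h later. Live TdTomato+ and TdTomato− cells were sorted from each of 5 mice, numbered 2 to 6, which gave 10 poly(A) RNA libraries, 5 of each population. Both populations therefore came from embryos of the same named genotype and had the same tamoxifen exposure. TdTomato− cells are all the remaining live cells rather than one cell type. The labels name brain and the methods name the dorsal telencephalon with the meninges removed, and neither says whether a mouse number stands for 1 embryo or a litter. If the numbers are not separate litters, the p-values measure the spread between these libraries alone.

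AMPA, kainate and NMDA receptors are cation channels of 4 subunits, whose subunit mixture sets their gating, calcium permeability and trafficking. Metabotropic receptors instead signal through G proteins, and the delta receptors bind extracellular synapse organizers. In the postsynaptic density, Dlg proteins bind the receptor tails, Dlgap proteins link Dlg to Shank, and Shank joins Homer and the actin skeleton, while CaMKII phosphorylates receptors and scaffolds. Most of these genes are already transcribed in cortical neurons of the embryo, before synapses are abundant.

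Expression of most of these genes was higher in TdTomato+ cells, but the kainate, NMDA, metabotropic, Neto, Dlgap, Homer and CaMKII families each held genes called in both directions (see the plot of log2 fold changes by family). Of the 41 genes, 24 were higher and 14 lower at an adjusted p of at most 0.05 (edgeR quasi-likelihood test with the mouse as a block, Benjamini-Hochberg adjustment over all genes), and *Gria4*, *Grm2* and *Dlg1* did not pass. Over all genes tested, 37.9% were called higher and 39.4% lower, so calls were common everywhere. The median log2 fold change, TdTomato+ against TdTomato−, was 0.74 over these genes and -0.01 over all genes. When a log2 fold change of at least 2 in either direction was also required, 6 genes were higher (*Gria3*, *Grik3*, *Grin2b*, *Neto2*, *Camk2b* and *Baiap2*) and 4 lower (*Grik1*, *Grin2c*, *Grm4* and *Grm8*). Of the lower genes, *Grin2c* and *Grm8* needed their TdTomato− libraries to enter the count table. The same thresholds were passed upward by 3.2% and downward by 9.74% of all genes. In edgeR's TREAT test, which asks that the fold change itself exceed a threshold, 15 genes were higher and 7 lower against a log2 fold change of 1 (8.59% and 13.7% of all genes). Against 2, 4 were higher and 1 lower (1.91% and 7.53% of all genes). The libraries of both populations did not overlap for 32 of the 41 genes, 20 higher and 12 lower, beside 61.6% of all genes. The 12 lower genes include *Grin2c* and *Grm8*. The direction was the same in all 5 mice for 37 genes (90.2%), beside 76.1% of all genes.

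**Figure D1:**
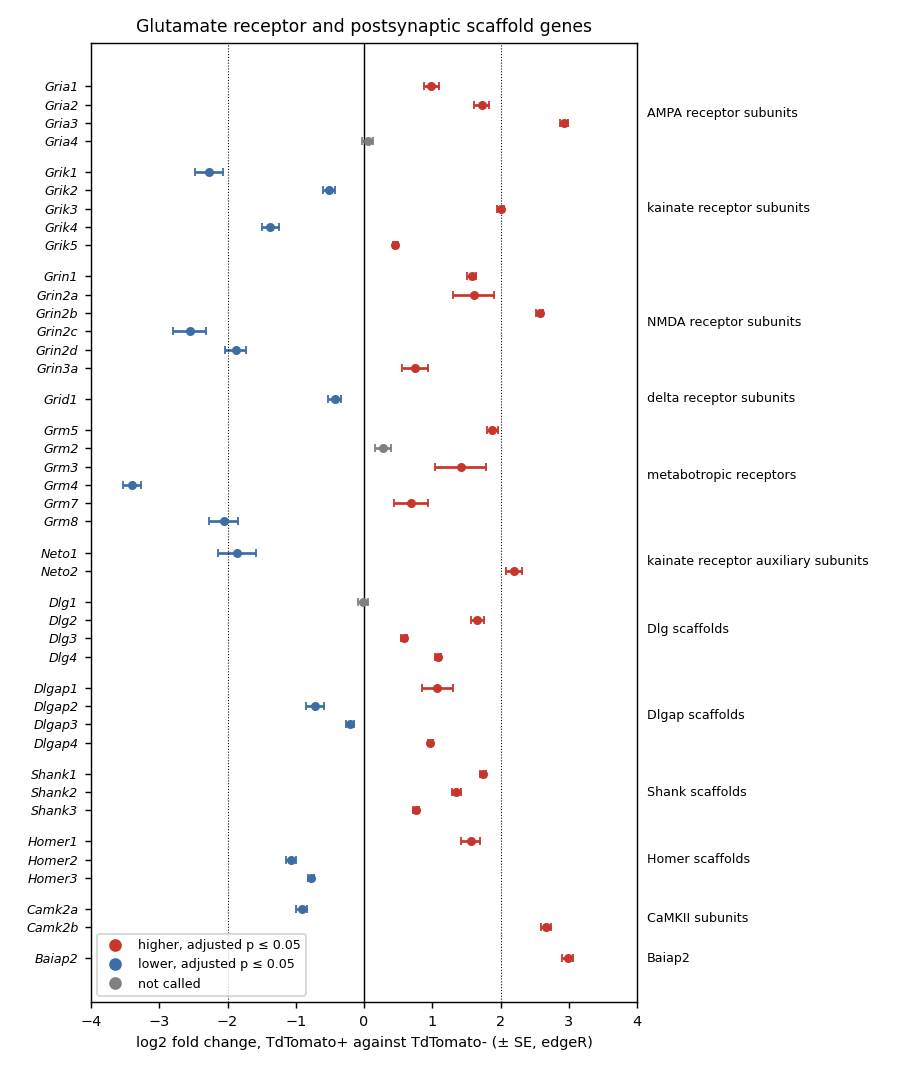
Log2 fold change of each of the 41 genes, TdTomato+ against TdTomato−, grouped by family (n=5 mice). Bars are standard errors derived from the edgeR F statistic, and dotted lines mark a log2 fold change of 2 in either direction. Red points (24 genes) were higher and blue points (14 genes) lower at an adjusted p of at most 0.05, and the 3 grey points were not called.

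Total counts were 23429034 to 27286180 a library. Values below are in CPM, the reads of a gene scaled to a common library size with TMM factors, given as mean±s.d. over 5 libraries unless stated; levels of different genes are compared only as CPM per kilobase of annotated exon (RPKM). *Grem1* itself averaged 6.11±0.73 CPM in the TdTomato− population against 63.3±3.10 CPM in the TdTomato+ population. Of 6 deep-layer neuron markers, 5 were higher in TdTomato+ libraries (*Tbr1*, *Fezf2*, *Sox5*, *Bcl11b* and *Tle4*), whereas *Foxp2* was not called. All 6 pan-neuronal markers were higher, with a median log2 fold change of 0.98, and their summed level was 4520 to 5139 CPM in TdTomato− and 8035 to 9038 CPM in TdTomato+ libraries. All 11 progenitor markers were lower and summed to 2408 to 2976 CPM in TdTomato− and 152 to 225 CPM in TdTomato+ libraries. The 9 GABAergic markers were all lower as well, at 1511 to 1980 CPM summed in TdTomato− and 65.1 to 114 CPM in TdTomato+ libraries. Markers of Cajal-Retzius cells (4 of 4), oligodendrocyte precursors (3 of 3), endothelium and pericytes (3 of 4), microglia (4 of 4), meninges (1 of 2) and erythroid cells (2 of 2) were also called lower. *C1qa*, *C1qb* and *Hba-a1* had 0 counts in at least 1 TdTomato+ library, and no marker had 0 counts in all of them. The part of these cell types in the differences below was not tested. In bulk RNA, fewer cells that express a gene and less RNA of it per cell cannot be told apart.

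**Figure D2:**
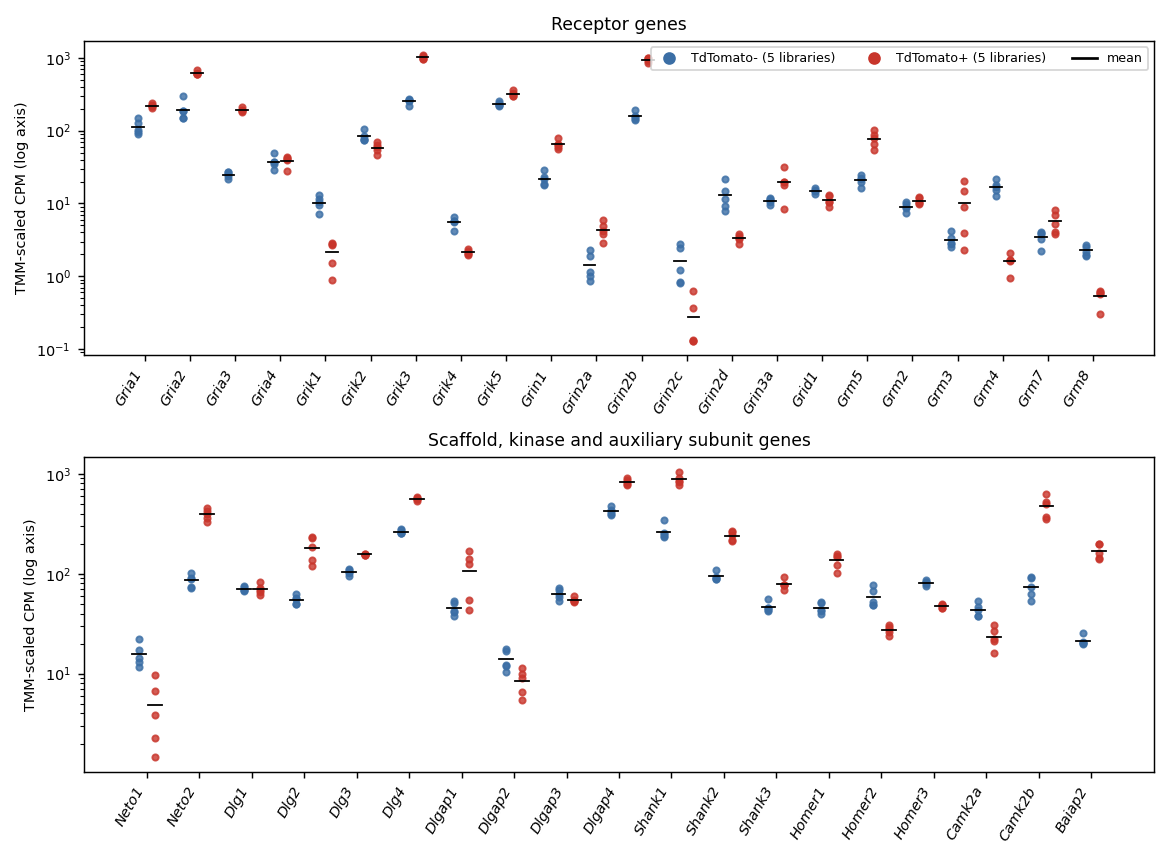
Expression of the 22 receptor genes (top) and the 19 scaffold, kinase and auxiliary subunit genes (bottom) in each library, as TMM-scaled CPM on a log axis; each point is 1 library of 1 mouse and black bars are means. For *Gria3*, *Grik3*, *Grin2b* and *Camk2b* every TdTomato+ point lies above every TdTomato− point, and for *Grik1* and *Grm4* every TdTomato+ point lies below.

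AMPA receptors carry most fast excitatory current, and 3 of their 4 subunit genes were higher in TdTomato+ cells. *Gria3* (chromosome X from 41400854 to 41678601, GRCm38, plus strand) was at 23.7, 27.2, 27.2, 21.4 and 25.2 CPM in the TdTomato− libraries of mice 2 to 6, and at 186.0, 209.5, 189.3, 190.2 and 177.7 CPM in the TdTomato+ libraries. Every TdTomato+ library lay far above every TdTomato− library, and the log2 fold change was 2.94±0.06 (s.e.; adjusted p = 1.73e-09, edgeR). *Gria2*, whose edited subunit makes the channel nearly impermeable to calcium, was at 295.0, 186.7, 150.8, 149.4 and 185.9 CPM in TdTomato− and at 680.9, 603.7, 596.6, 590.5 and 626.8 CPM in TdTomato+ libraries. Both populations were highest in mouse 2, and the groups did not overlap (log2 fold change 1.72±0.10, adjusted p = 5.24e-07, edgeR). *Gria1*, the subunit most tied to regulated insertion at synapses, was at 88.9 to 147.9 CPM in TdTomato− and 206.0 to 236.5 CPM in TdTomato+ libraries, a log2 fold change of 0.99±0.11 (adjusted p = 3.17e-05, edgeR). *Gria4* was at 37.4±7.42 and 38.7±6.41 CPM, with 3 mice higher and 2 lower, and its log2 fold change was 0.05±0.08 (adjusted p = 0.568, edgeR). Its TdTomato+ libraries of mice 2 to 5 were at 39.2 to 43.4 CPM and that of mouse 6 at 27.5 CPM. Per length, *Gria1* (18.6±4.02 RPKM) and *Gria2* (12.5±3.83 RPKM) led in TdTomato− libraries, with *Gria1* above *Gria2* in all 5 mice (in 3 of 5 per kilobase of the longest transcript), followed by *Gria4* (5.92±1.18 RPKM) and *Gria3* (2.53±0.25 RPKM). In TdTomato+ libraries *Gria3* (19.3±1.19 RPKM) stood above *Gria4* (6.13±1.02 RPKM), behind *Gria2* (39.9±2.37 RPKM) and *Gria1* (36.2±1.86 RPKM).

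Kainate receptors split more sharply, with *Grik3* and *Grik5* higher and *Grik1*, *Grik2* and *Grik4* lower in TdTomato+ cells. GluK1 to GluK3 subunits form channels by themselves, whereas GluK4 and GluK5 need one of them as a partner. *Grik3* (chromosome 4 from 125490700 to 125714173, plus strand) was at 260.5, 257.7, 272.4, 263.7 and 217.6 CPM in the TdTomato− libraries of mice 2 to 6 and at 1064, 1089, 1005, 973 and 948.7 CPM in TdTomato+ libraries. The lowest library of each population was that of mouse 6, and the ratio was close in every mouse; the log2 fold change of 2.00±0.05 (adjusted p = 2.87e-09, edgeR) sat at the fold change threshold. *Grik1* (chromosome 16 from 87895900 to 88290265, minus strand) went the other way, at 12.9, 10.6, 11.4, 9.47 and 7.07 CPM in TdTomato− and 1.54, 2.73, 2.78, 2.87 and 0.904 CPM in TdTomato+ libraries. All 5 TdTomato+ libraries were below the TdTomato− libraries, with those of mice 2 and 6 lowest (log2 fold change -2.28±0.20, adjusted p = 7.51e-06, edgeR). *Grik4* fell from 5.57±0.84 to 2.14±0.15 CPM (log2 fold change -1.37±0.13) and *Grik2* from 83.1±13.7 to 58.3±9.15 CPM (-0.51±0.09). *Grik5* was at 219.5 to 252.5 CPM in TdTomato− and 295.3 to 357.1 CPM in TdTomato+ libraries, a log2 fold change of 0.46±0.04 (adjusted p = 3.75e-06, edgeR). Per length, *Grik5* was the leading kainate gene in TdTomato− libraries (45.0±2.53 RPKM, against 28.4±2.37 RPKM for *Grik3*). In TdTomato+ libraries *Grik3* led at 113±6.63 RPKM, *Grik5* followed at 61.8±4.86 RPKM, and *Grik1* (0.322±0.133 RPKM) and *Grik4* (0.358±0.025 RPKM) overlapped, with *Grik1* above *Grik4* in 3 mice and below it in 2.

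Neto proteins bind kainate receptors and slow their desensitization, and both of their genes changed, in opposite directions. *Neto2* (chromosome 8 from 85636588 to 85700924, minus strand) was at 89.6, 91.6, 102.5, 71.3 and 73.5 CPM in TdTomato− and 420.1, 392.2, 327.4, 456.7 and 360.3 CPM in TdTomato+ libraries. The groups were far apart in every mouse (log2 fold change 2.19±0.12, adjusted p = 2.52e-07, edgeR). *Neto1*, which also binds NMDA receptors, was at 22.3, 11.7, 14.48, 17.2 and 13.2 CPM in TdTomato− and 6.76, 2.30, 1.46, 9.74 and 3.89 CPM in TdTomato+ libraries. It was lower in all 5 mice without overlap, although the TdTomato+ libraries spread widely (log2 fold change -1.86±0.28, adjusted p = 0.00021, edgeR).

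NMDA receptors pair the obligatory glycine-binding subunit encoded by *Grin1* with glutamate-binding GluN2 subunits, and among the GluN2 genes *Grin2b* was higher and *Grin2d* and *Grin2c* were lower in TdTomato+ cells. *Grin2b*, the GluN2 gene that predominates in the embryonic cortex, was at 190.9, 144.6, 152.8, 159.6 and 140.4 CPM in TdTomato− and 983.3, 959.9, 895.8, 977.9 and 853.2 CPM in TdTomato+ libraries, with no overlap (log2 fold change 2.57±0.06). *Grin2d* was at 21.5, 7.91, 9.22, 14.7 and 11.6 CPM in TdTomato− and 3.85, 2.78, 3.27, 3.61 and 3.34 CPM in TdTomato+ libraries. Its TdTomato− libraries spread widely, from the highest in mouse 2 to the lowest in mouse 3, and all lay above the narrow TdTomato+ range (log2 fold change -1.88±0.15, adjusted p = 3.55e-06, edgeR). The summed markers in the TdTomato− libraries of mice 2 to 6 were at 1980, 1525, 1511, 1792 and 1553 CPM for GABAergic cells. Those of oligodendrocyte precursors were at 60.9, 40.8, 43.1, 52.3 and 57.3 CPM and those of microglia at 53.0, 10.9, 15.3, 39.1 and 45.8 CPM. Of the 10 marker lists, these 3 were highest in mouse 2, as *Grin2d* was. Progenitor markers were highest in mouse 5, endothelial and erythroid markers in mouse 6, deep-layer markers in mouse 3, and Cajal-Retzius, meningeal and pan-neuronal markers in mouse 4. The part of these cells in the spread of *Grin2d* was not tested. Of the exon sequence of *Grin2d*, 9.66% overlaps the antisense gene *Gm45441*. *Grin2c* (chromosome 11 from 115249169 to 115267243, minus strand), best known from the cerebellum, was scarce. It had 20 to 71 counts in TdTomato− libraries and 14, 3, 3, 3 and 8 counts in TdTomato+ libraries, a log2 fold change of -2.56±0.24. It exceeded 0.5 CPM in all 5 TdTomato− libraries and 1 TdTomato+ library, so it entered the count table because of the population where it was higher, and its difference is given as a description. *Grin2a*, the subunit that gains weight after birth, was also scarce, at 1.45±0.62 and 4.36±1.18 CPM (log2 fold change 1.61±0.30, adjusted p = 0.000951, edgeR). *Grin1* was at 29.1, 17.8, 21.5, 23.1 and 18.4 CPM in TdTomato− and 78.1, 56.7, 60.1, 66.0 and 63.9 CPM in TdTomato+ libraries, higher without overlap (log2 fold change 1.58±0.06). Of its exon sequence, 13.47% overlaps the antisense gene *Grin1os*. *Grin3a*, whose subunit lowers calcium entry, was at 17.9, 19.9, 19.6, 31.7 and 8.45 CPM in TdTomato+ and 9.55 to 11.9 CPM in TdTomato− libraries. It was higher in 4 of 5 mice and lower in mouse 6, and was called at a log2 fold change of 0.74±0.19 (adjusted p = 0.00614, edgeR). Per length, *Grin2b* was above *Grin1* in both populations, at 6.35±0.81 and 2.27±0.47 RPKM in TdTomato− and 37.6±2.30 and 6.70±0.84 RPKM in TdTomato+ libraries.

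*Grik3* and its auxiliary subunit gene *Neto2* were both higher in TdTomato+ cells and *Grin2c* had fewer reads there, and the 250 bases before the annotated start of each (RefSeq, GRCm38.p6) are shown for comparison. The windows are chr4:125490446-125490695 on the plus strand, chr8:85700925-85701174 on the minus strand and chr11:115267244-115267493 on the minus strand. Capitals mark the GC box, GGGCGG on either strand, where neighbouring matches may share a base.
Grik3: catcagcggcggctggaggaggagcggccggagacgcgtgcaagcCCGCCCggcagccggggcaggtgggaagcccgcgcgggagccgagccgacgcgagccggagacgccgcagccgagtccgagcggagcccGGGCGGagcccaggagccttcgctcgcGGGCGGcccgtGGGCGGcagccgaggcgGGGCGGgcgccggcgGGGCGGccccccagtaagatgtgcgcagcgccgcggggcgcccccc
Neto2: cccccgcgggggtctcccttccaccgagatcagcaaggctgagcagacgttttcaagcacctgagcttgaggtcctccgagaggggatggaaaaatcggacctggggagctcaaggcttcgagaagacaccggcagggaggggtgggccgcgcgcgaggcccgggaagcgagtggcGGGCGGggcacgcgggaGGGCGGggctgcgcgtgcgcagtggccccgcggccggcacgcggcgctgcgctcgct
Grin2c: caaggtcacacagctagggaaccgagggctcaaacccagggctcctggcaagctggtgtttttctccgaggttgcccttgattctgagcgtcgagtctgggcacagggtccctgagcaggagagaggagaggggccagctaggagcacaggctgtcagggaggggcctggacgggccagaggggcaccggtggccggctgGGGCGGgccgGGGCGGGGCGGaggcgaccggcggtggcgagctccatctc
The window of *Grik3* held 6 GC boxes, that of *Grin2c* 3 and that of *Neto2* 2, and G and C made up 82.0%, 68.8% and 72.0% of their bases. RefSeq windows were matched to 27 of the 41 genes, with none used for *Gria3*, *Grik1*, *Grin2b* or *Grm4*. The median G and C content was 65.2% over the 27 windows and 52.4% over all 32851 windows. A GC box was present in 9 of 16 windows of genes called higher, 5 of 8 of genes called lower and 32.7% of all windows, so genes of both directions carried it. The letters CAGATG, an E-box of proneural factors, were in 1 of 16 and 1 of 8 windows, against 14.4% of all. GTGTGA, a core T-box element, was in 0 of 16 and 2 of 8 windows (12.3% of all), and TGACG, a core cyclic AMP response element, in 3 of 16 and 0 of 8 (17.8% of all). All motifs were searched on both strands.

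*Grid1* encodes a delta receptor, a class that binds cerebellins rather than acting as an ordinary glutamate-gated channel, and was slightly lower in TdTomato+ cells. It was at 13.3 to 16.3 CPM in TdTomato− and 8.86 to 13.0 CPM in TdTomato+ libraries, without overlap (log2 fold change -0.43±0.09, adjusted p = 0.00222, edgeR).

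Of the 6 metabotropic receptor genes described here, 3 were higher, 2 lower and 1 not called. *Grm5*, a group I receptor that couples to phospholipase C, was higher in TdTomato+ cells. It was at 24.2, 19.4, 21.9, 22.3 and 16.3 CPM in TdTomato− and 86.7, 80.0, 66.1, 101.6 and 54.4 CPM in TdTomato+ libraries, higher without overlap (log2 fold change 1.88±0.08, adjusted p = 7.4e-08, edgeR). The group II and III receptors inhibit adenylyl cyclase. *Grm2* of group II, of whose exon sequence 9.60% overlaps the antisense gene *Gm28111*, was not called (log2 fold change 0.28±0.12, adjusted p = 0.0573, edgeR). *Grm3*, also of group II, was at 4.14, 2.49, 3.33, 2.81 and 2.89 CPM in TdTomato− and 20.3, 3.99, 2.30, 14.9 and 8.90 CPM in TdTomato+ libraries. The TdTomato+ libraries of mice 2, 5 and 6 were well above all TdTomato− libraries, that of mouse 3 was within their range and that of mouse 4 was below all of them, so the log2 fold change of 1.42±0.38 (adjusted p = 0.00722, edgeR) averages unlike mice.

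Among group III receptors, *Grm4* (chromosome 17 from 27422387 to 27521403, minus strand) had the lowest log2 fold change of the 41 genes. It was at 21.5, 12.8, 17.1, 17.9 and 15.4 CPM in TdTomato− and 2.09, 1.61, 1.68, 1.70 and 0.949 CPM in TdTomato+ libraries. No TdTomato+ library came near the TdTomato− range (log2 fold change -3.40±0.13, adjusted p = 3.19e-08, edgeR). *Grm8* (chromosome 6 from 27275119 to 28135178, minus strand) had 49 to 68 counts in TdTomato− and 7 to 14 counts in TdTomato+ libraries (log2 fold change -2.06±0.21). *Grm7* was at 2.22 to 4.01 CPM in TdTomato− and 3.84 to 8.17 CPM in TdTomato+ libraries, overlapping between groups (log2 fold change 0.69±0.24, adjusted p = 0.0276, edgeR). Without mouse 2 or mouse 5 it was 0.64 and 0.41 and not called. *Grm8* exceeded 0.5 CPM in all 5 TdTomato− libraries and in 4 of the 5 TdTomato+ libraries. The count table holds genes above that level in at least 5 libraries. The entry of *Grm8* therefore needed the population where it was higher, and its difference is given as a description.

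Of the Dlg scaffolds, whose PDZ domains bind the tails of NMDA receptor subunits, *Dlg2*, *Dlg3* and *Dlg4* were higher and *Dlg1* was not called. *Dlg4*, the abundant scaffold of mature excitatory synapses, was at 258.2, 254.6, 271.2, 258.0 and 279.4 CPM in TdTomato− and 584.7, 565.4, 568.6, 530.5 and 554.8 CPM in TdTomato+ libraries. The libraries of each group were tightly clustered, and the log2 fold change was 1.09±0.04 (adjusted p = 2.44e-08, edgeR). *Dlg2* was at 62.9, 49.9, 49.3, 57.4 and 56.2 CPM in TdTomato− and 231.6, 137.4, 118.6, 225.3 and 184.1 CPM in TdTomato+ libraries, where mice 3 and 4 were lowest (log2 fold change 1.66±0.10, adjusted p = 4.23e-07, edgeR). *Dlg3*, an early scaffold linked to NMDA receptor delivery, was at 95.0 to 110.7 and 154.3 to 157.8 CPM (log2 fold change 0.59±0.05). *Dlg1* was at 70.7±4.00 and 70.1±8.59 CPM (log2 fold change -0.02±0.07, adjusted p = 0.819, edgeR), with 2 mice higher and 3 lower.

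Dlgap proteins join Dlg to Shank, and 2 of their genes were higher and 2 lower. *Dlgap4* rose from 423.6±36.6 to 830.0±51.0 CPM (log2 fold change 0.97±0.04, adjusted p = 3.55e-08, edgeR) and was the most abundant of them per length in both populations, at 50.1±4.33 and 98.2±6.03 RPKM. *Dlgap1* was at 53.1, 37.8, 41.5, 50.8 and 42.6 CPM in TdTomato− and 167.3, 54.0, 43.4, 141.4 and 125.0 CPM in TdTomato+ libraries. The TdTomato+ library of mouse 4 was within the TdTomato− range, that of mouse 3 just above it and the other 3 well above it (log2 fold change 1.07±0.22, adjusted p = 0.00181, edgeR). *Dlgap2* was lower, at 13.9±3.19 and 8.51±2.46 CPM (log2 fold change -0.72±0.13), and *Dlgap3* by less, at 63.1±7.49 and 54.6±2.87 CPM (-0.20±0.06). Both overlapped between groups and were lower in all 5 mice.

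All 3 Shank genes, which encode the large scaffolds deepest in the density, were higher. *Shank1* was at 346.8, 230.9, 235.9, 247.2 and 256.8 CPM in TdTomato− and 1053, 774.1, 837.2, 829.8 and 900.3 CPM in TdTomato+ libraries, with mouse 2 highest in both (log2 fold change 1.75±0.04, adjusted p = 3.19e-09, edgeR). *Shank2* was at 88.4 to 109.5 and 213.4 to 270.5 CPM (log2 fold change 1.35±0.07), and *Shank3* at 42.1 to 56.5 and 69.2 to 93.5 CPM (0.77±0.04). The fold changes thus descended from *Shank1* to *Shank3*, and so did the levels per length in TdTomato+ libraries, at 83.6±10.2, 22.4±2.30 and 8.61±0.96 RPKM.

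Homer proteins tie group I metabotropic receptors to Shank, and *Homer1* was higher while *Homer2* and *Homer3* were lower. *Homer1* was at 43.6, 52.0, 50.9, 39.1 and 42.7 CPM in TdTomato− and 157.3, 123.0, 102.3, 149.0 and 146.5 CPM in TdTomato+ libraries (log2 fold change 1.56±0.13, adjusted p = 5.12e-06, edgeR). Gene counts do not separate its long scaffold form from the short activity-induced form. *Homer2* was at 48.5, 76.6, 67.9, 52.3 and 49.0 CPM in TdTomato− and 26.2, 29.2, 31.0, 28.1 and 23.7 CPM in TdTomato+ libraries (log2 fold change -1.07±0.08, adjusted p = 1.5e-06, edgeR). Within each population, mice 3 and 4 were the highest for *Homer2*. *Homer3* was at 74.9 to 87.5 and 45.0 to 50.4 CPM (log2 fold change -0.77±0.04), and 25.4% of its exon sequence overlaps the antisense gene *Ddx49*.

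CaMKII is the abundant calcium-dependent kinase of the density, and its alpha and beta genes moved apart. *Camk2b* (chromosome 11 from 5969644 to 6066362, minus strand) was at 90.9, 53.8, 62.2, 72.8 and 92.4 CPM in TdTomato− and 621.0, 372.7, 350.2, 524.2 and 497.9 CPM in TdTomato+ libraries. Mice 3 and 4 were lowest in both populations, and the log2 fold change was 2.67±0.07 (adjusted p = 4.23e-09, edgeR). *Camk2a*, which becomes the major form in the postnatal forebrain, was at 42.9, 46.2, 53.6, 37.6 and 37.5 CPM in TdTomato− and 21.1, 26.8, 30.9, 22.0 and 16.0 CPM in TdTomato+ libraries, lower without overlap (log2 fold change -0.91±0.07, adjusted p = 3.65e-06, edgeR). *Baiap2*, an actin-bending partner of Dlg and Shank proteins, had the highest log2 fold change of the 41 genes, 2.99±0.08 (adjusted p = 4.43e-09, edgeR). This gene occupies bases 119942763 to 120006782 of the plus strand of chromosome 11. Its TdTomato+ libraries were at 198.0, 141.7, 142.2, 162.3 and 198.3 CPM and its TdTomato− libraries at 19.6 to 25.3 CPM.

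**Figure D3:**
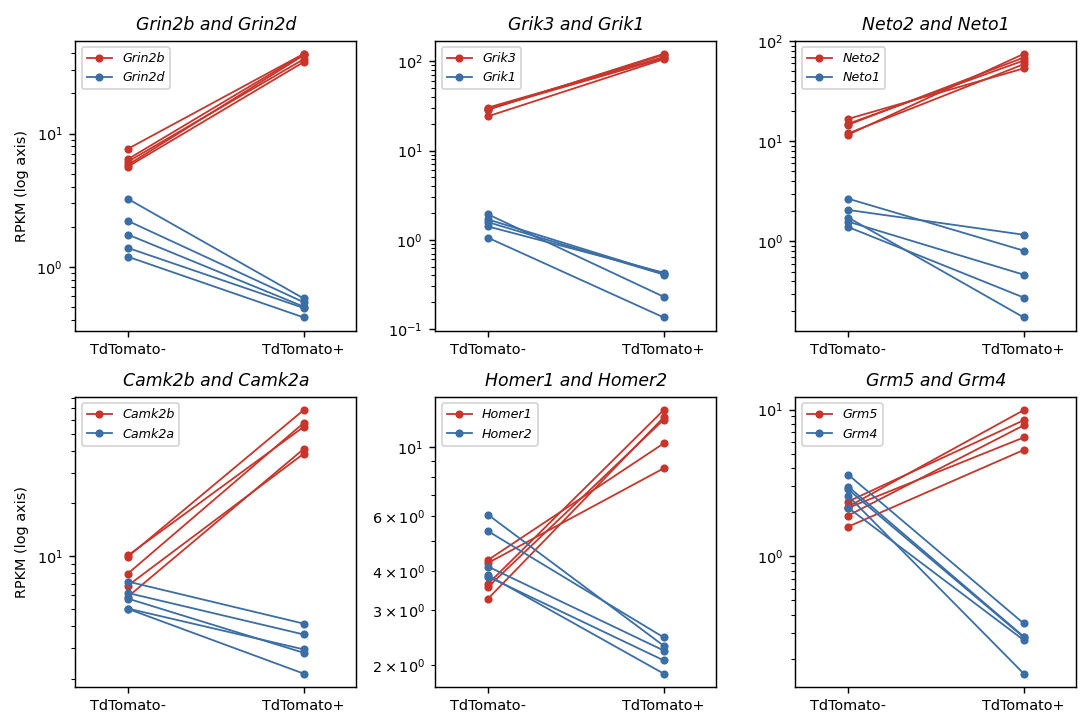
RPKM on a log axis for 6 pairs of related genes in the TdTomato− and TdTomato+ library of each mouse; each line joins the 2 libraries of 1 of the 5 mice. In each pair the gene in red rose in all 5 mice and the gene in blue fell in all 5, for example *Grin2b* from 6.35 to 37.6 RPKM on average and *Grin2d* from 1.95 to 0.506 RPKM. The pairs shown each hold a gene called higher and a gene called lower, so their opposite movement follows from the choice. Related genes not shown also moved together, as the Shank genes did.

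Shares within families also differed between the populations, as the plot of family shares shows. The share of a gene is its RPKM divided by the summed RPKM of its family in the same library. *Grin2b* made up 73.7±5.51% of GluN2 subunit RNA in TdTomato− and 97.9±0.29% in TdTomato+ libraries, while *Grin2d* went from 21.8±4.85% to 1.32±0.15%. *Grik3* went from 34.5±2.53% to 62.9±1.86% of kainate subunit RNA, and *Grik5* from 54.9±2.51% to 34.3±2.05%. Among AMPA subunits, *Gria3* went from 6.63±1.54% to 19.0±0.91% and *Gria4*, whose own level was not called different, from 15.1±1.70% to 6.04±0.96%. Among the 6 metabotropic receptor genes described here, *Grm4* went from 33.0±3.44% to 1.92±0.53% of the summed RPKM and *Grm5* from 23.7±2.25% to 53.9±8.83%. *Homer1* went from 11.8±1.19% to 41.2±5.03% of Homer RNA, and *Camk2b* from 57.8±8.51% to 93.9±2.67% of that of *Camk2a* and *Camk2b* together. Each of these shares moved the same way in all 5 mice, with an exact two-sided sign-flip permutation p of 0.0625, the smallest that 5 pairs allow (0.0701 after adjustment over 37 shares), so none could pass 0.05. The share of *Grm7* moved by -0.144±2.30 points, up in 2 mice and down in 3 (exact permutation p = 0.875).

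**Figure D4:**
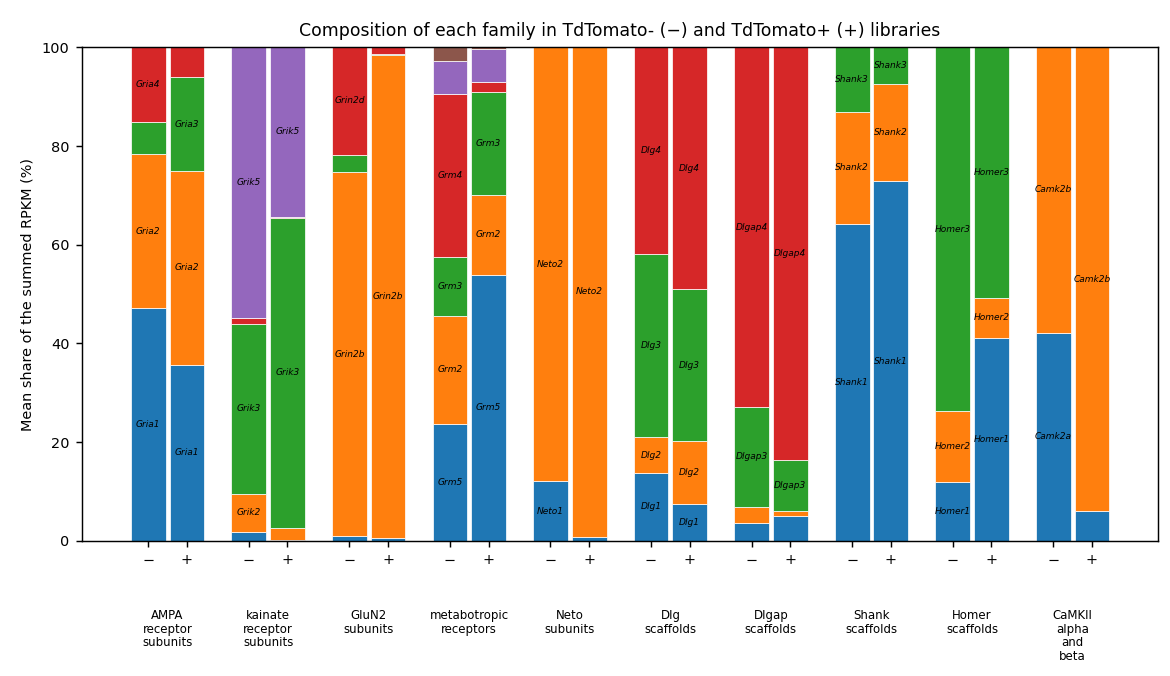
Mean share of each gene in the summed RPKM of its family (%, n=5 libraries a bar), with TdTomato− on the left and TdTomato+ on the right of each pair of bars; genes with a share under 7% are unlabelled. *Grin2b* fills 97.9% of the GluN2 bar and *Camk2b* 93.9% of the CaMKII bar in TdTomato+ libraries.

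Summed over a family, RNA was higher in TdTomato+ cells in most cases. The NMDA receptor genes together were at 11.9±2.17 and 46.7±3.29 RPKM, a ratio of 3.24 to 4.69 over the 5 mice, and the Neto genes at 15.9±2.17 and 64.4±8.59 RPKM. AMPA subunits summed to 39.5±8.07 and 101.5±3.92 RPKM, kainate subunits to 82.1±4.18 and 180.1±8.96 RPKM, and Shank genes to 38.9±5.92 and 114.6±10.8 RPKM. The Homer genes summed to 32.2±1.82 and 27.4±1.44 RPKM, lower in TdTomato+ libraries in each of the 5 mice. That direction depended on the length used: per kilobase of the longest transcript they summed to 44.6±2.50 and 44.6±3.35 RPKM, higher in 3 mice and lower in 2.

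Other genes of the same machinery were read from lists of known partners. Of 19 genes for AMPA receptor auxiliary and assembly proteins, 16 were higher and 3 lower, with a median log2 fold change of 0.91. *Gsg1l* (16.4±1.59 to 130.4±18.5 CPM, log2 fold change 2.99±0.07), *Cnih3* (2.79±0.11) and *Shisa9* (2.74±0.13), which encode proteins that change AMPA receptor gating, were the most changed among those above the expression minimum. Of 20 CaMKII relatives and regulators, 17 were higher and 2 lower, led by the phosphatase inhibitor gene *Ppp1r1b* (15.8±2.13 to 152.1±16.7 CPM, 3.27±0.08), *Camkv* (3.13±0.10) and *Camk4* (2.16±0.06). Of the other two CaMKII subunit genes, picked out after their values were seen, *Camk2g* was higher (75.8±1.27 to 117.6±4.87 CPM, 0.63±0.04) and *Camk2d* lower (22.0±4.27 to 7.30±2.77 CPM, -1.63±0.22). Of 32 other postsynaptic density genes, 23 were higher and 7 lower, with *Nos1* (log2 fold change 2.09±0.15), *Iqsec2* (2.03±0.05) and *Tanc2* (1.56±0.05) named by the same rule. *Tanc1*, the paralogue of *Tanc2*, was at -4.09±0.09, and the activity-induced *Arc* at -3.09±0.31, both picked out after their values were seen.

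Of 24 receptor trafficking and anchoring genes, 22 were higher and 2 lower. *Grip2*, which binds AMPA receptor tails, was at 2.32±0.16 on the log2 scale and *Dnm3*, a dynamin of spines, at 1.90±0.09, whereas *Myo6*, a motor of endocytosis, was at -3.69±0.12 (34.7±3.78 to 2.70±0.62 CPM). Of 18 extracellular ligands and organizers, 11 were higher and 6 lower, with *Lrfn5* (log2 fold change 3.18±0.06), *Elfn2* (2.61±0.07) and the pentraxin receptor gene *Nptxr* (2.29±0.12) the most changed among those above the expression minimum. *Elfn1*, the paralogue of *Elfn2*, was lower (-1.44±0.11) and was also picked after its value was seen. Of 20 genes for metabotropic receptor signalling, 12 were higher and 3 lower. They included the inhibitory G protein gene *Gnai2* (339.1±14.46 to 91.9±4.86 CPM, log2 fold change -1.88±0.05), the diacylglycerol kinase gene *Dgki* (2.15±0.05) and the channel gene *Trpc1* (1.18±0.09). The 37.9% and 39.4% of all genes called higher and lower are the background to all of these counts.

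Most differences were alike across mice, but a few were not, as the plot of ratios within each mouse shows. For *Dlg4* the log2 ratio of CPM within a mouse was 0.99 to 1.18 and for *Grik3* it was 1.88 to 2.12. For *Grm3* it was 2.29, 0.68, -0.54, 2.41 and 1.62 in mice 2 to 6, and for *Dlgap1* 1.65, 0.52, 0.07, 1.48 and 1.55. The lowest ratios of both genes were in mice 3 and 4. In TdTomato+ libraries, mice 3 and 4 were the lowest pair for 13 of the 41 genes (31.7%), among them *Grin1*, *Grm3*, *Dlg2*, *Dlgap1*, *Neto1*, *Homer1*, *Camk2b* and *Baiap2*, and the highest pair for *Shank2*, *Homer2* and *Camk2a*. Over all genes these were 19.7% and 19.6%. The summed deep-layer markers in TdTomato+ libraries were also highest in mice 3 and 4, at 5816 and 5499 CPM against 4770 to 5161 CPM in the other 3. So were the GABAergic markers, at 107.9 and 114 CPM against 65.1 to 91.0 CPM, and the erythroid markers, at 5.03 and 14.3 CPM against 0.816 to 2.78 CPM, while the other 7 lists were not. The part of these cells in the pattern was not tested. The pattern was picked out after the values were seen.

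**Figure D5:**
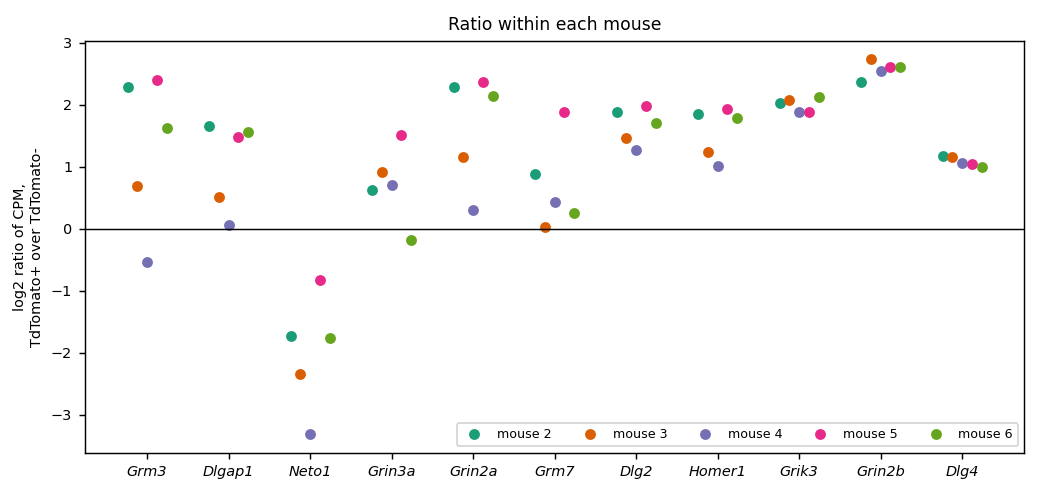
Log2 ratio of CPM, TdTomato+ over TdTomato− within each mouse, for 11 genes; each colour is 1 mouse and 0 means equal levels. *Grm3*, *Dlgap1* and *Neto1* have their lowest ratios in mice 3 and 4, whereas the 5 points of *Grik3*, *Grin2b* and *Dlg4* lie close together.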

How the data were processed

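Live TdTomato+ and TdTomato− cells were sorted from 5 mice (tamoxifen at 13.5 days post coitum, collection at 14.5). The deposited table holds unnormalized read counts for each Ensembl gene. Per their methods, reads were trimmed below a Phred score of 28, aligned to GRCm38 with STAR 2.4.2a allowing 1 mismatch, and kept when unique; edgeR 3.28.0 is also named in the submitters' processing notes. Annotation release and strand setting are not given in the sources used here, and the labels and methods name different library kits. The authors removed outliers seen on a multidimensional scaling plot, with a cut-off not given in the sources used here. The table holds genes above 0.5 CPM in at least 5 libraries.

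Of 14300 gene IDs, 14271 matched GENCODE M21 symbols. In R 4.3.3, edgeR 4.0.16 was applied to the counts (filterByExpr, TMM, quasi-likelihood F-test, mouse as block, prior count 0.125), with DESeq2 1.42.0 among the alternatives. The standard error of a log2 fold change is its absolute value divided by the square root of the F statistic of that edgeR test. On simulated data the test was checked before use. Mouse numbers pair the libraries: each number carries both populations, and deviations from the group means correlated at 0.186 to 0.316 within every mouse. No pair of libraries agreed within sampling noise (chi-square per degree of freedom 4.53 or more). Total counts of 23429034 to 27286180 make 3 counts about 0.104 to 0.136 CPM.

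All 41 genes passed the count filter and are named; 2 further genes that the same rule finds are not reported here. From each partner list, the 3 genes with the largest absolute log2 fold change were named among those called and at a mean log2 CPM of at least 3. Genes and lists were chosen with earlier results of these data known.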

Additional observations from a re-analysis of the deposited data

Results flagged for a closer look

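Each of the 82 groups of 5 libraries (41 genes in both populations) was examined for 1 library lying apart on the log2 CPM scale, by the gap to its nearest neighbour as a share of the whole range, with a critical value of 0.71. About 4.1 groups would pass by chance, and 7 did. Mouse 6 gave 3 of them. Its TdTomato+ library was lowest for *Gria4* (gap 0.774 of the range), and its TdTomato− library was lowest for *Grik3* (0.754) and highest for *Baiap2* (0.804, at 25.3 CPM against 19.6 to 20.6 CPM in the others). The TdTomato− library of mouse 2 was highest for all 3 Shank genes, *Shank1* (0.739), *Shank2* (0.751) and *Shank3* (0.725). The TdTomato+ library of mouse 3 was lowest for *Grm8* (0.839), where it had 7 counts and the others 13 or 14.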

How the results depend on the processing

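The 24 higher and 14 lower genes were counted again under other normalizations (RLE, upper quartile), filters, prior count, robust estimation, DESeq2 and without each mouse, and stayed at 23 to 25 and 13 or 14. Without the replicate block, the pairing by mouse dropped, they were 25 and 14, since *Grm2* passed (0.27). Genes past both thresholds numbered 5 or 6 higher and 3 to 5 lower. The higher count moved with *Grik3*, which lies at a log2 fold change of 2.00, and the lower count with *Grm8* (-1.91 with a prior count of 2 or without mouse 3), *Grin2c* (removed by the CPM minimum of 1) and *Neto1* (-2.19 without mouse 5). Under edgeR's TREAT test against a log2 fold change of 1, 15 were higher and 7 lower (8.59% and 13.7% of all genes). Against 2, 4 were higher and 1 lower, *Grm4* (1.91% and 7.53% of all genes). *Grm7* was not called without mouse 2 or 5. *Grm2* was called without mouse 4 (0.33) or 6 (0.35). *Dlg1*, not called in any of these fits, changed sign without mouse 3 (0.034) or mouse 4 (0.012) and ranged from -0.087 to 0.034 without each mouse. With the length of the longest transcript in place of the exon union, the share of *Homer1* rose by 35.1 points rather than 29.3, and that of *Camk2b* by 29.1 rather than 36.1. With that length, chosen for sums and orders after seeing the data, the Homer sum no longer differed in one direction and *Gria2* passed *Gria1* in 2 TdTomato− libraries, while the other 10 family sums were higher in all 5 mice as before. Leaving out each mouse gave 28.1 to 31.3 points for *Homer1*, 34.3 to 37.8 for *Camk2b*, 22.6 to 25.7 for *Grin2b* and 27.8 to 29.0 for *Grik3*. No other normalization moved the median of all genes by more than 0.019 (log2). Depth limits *Grin2c*, which had 3 counts in 3 TdTomato+ libraries. Unstated strand settings limit *Grin1*, *Grin2d*, *Grm2* and *Homer3*, which overlap antisense genes.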

Other observations

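The stargazin-like proteins, auxiliary subunits that carry AMPA receptors to the membrane, also divided by gene, as seen when their values were read side by side. *Cacng4* averaged 213.4±16.5 CPM in the TdTomato− population against 400.3±19.4 CPM in the TdTomato+ population (log2 fold change 0.91±0.04) and *Cacng8* at 23.7±0.96 and 65.0±4.17 CPM (1.45±0.05). *Cacng7* (0.63±0.04) and *Cacng2* (0.44±0.08) were higher by less. *Cacng3* (-1.27±0.12) and *Cacng5* (-3.35±0.43), both under 7 CPM on average, were lower. *Cacng2*, *Cacng3*, *Cacng4*, *Cacng7* and *Cacng8* passed an adjusted p of 0.05 (edgeR). *Cacng5* averaged 0.49±0.23 CPM in TdTomato+ libraries, under the 0.5 CPM level of the count table. Its entry needed the TdTomato− libraries, where it was higher, and its difference is given as a description. Among secreted organizers, *Nptx2* (-2.86±0.35), *C1ql1* (-2.55±0.34), *Cbln4* (-1.08±0.27) and *Cbln2* (-0.24±0.09) were lower, whereas *C1ql3* (1.39±0.15), *Cbln1* (1.37±0.08) and *Nptx1* (0.75±0.13) were higher. *C1ql1* averaged 0.31±0.25 CPM in TdTomato+ libraries, so its entry also needed the TdTomato− libraries. *Nptx2* (1.02±0.84 CPM) and *Cbln4* (0.98±0.51 CPM) were near that level there too. These genes were chosen after their values were seen.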
